A study of Homo sapiens with 2 samples.

Results

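The apolipoproteins are the protein components of lipoprotein particles, and 10 genes of this group that are known products of the liver were followed across both libraries of the study: APOA1, APOA2, APOA4, APOA5, APOB, APOC1, APOC3, APOE, APOH and APOM. They were taken by symbol from the 24991 distinct single-gene symbols of the authors' table, and were chosen with earlier results of these data known. Each library came from PLC/PRF/5, an established line of human liver cancer cells, kept under hypoxia. The vector library came from cells with an empty vector (EV) and the NFX1 library from cells labelled NFX1_OE, which overexpress the zinc-finger transcription factor NFX1. The promoter that drives NFX1, the number of clones and the oxygen level are not given in the sources used here. Each group is 1 library without a replicate, so each difference is one between these 2 libraries, and no test across samples was possible.

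Lipoproteins carry cholesterol and triglyceride through plasma in a shell of phospholipid and apolipoprotein. APOB is the large structural protein that stays with very-low-density and low-density particles for life, whereas the small exchangeable apolipoproteins of the A, C and E groups move between particles through amphipathic helices. APOA1 and APOA2 form high-density lipoprotein (HDL), APOE is the ligand that hepatic receptors bind on remnant particles, and the C group and APOA5 set the rate at which triglyceride is hydrolysed. In hepatocytes these genes depend on liver-enriched transcription factors such as HNF4A.

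The labels and the tissue were checked first. NFX1 itself was at 4.21 FPKM (fragments per kilobase of transcript, scaled to library size) with the vector and at 56.0 FPKM with NFX1. The smallest FPKM steps corresponded to 36.6 M fragments in the vector library and 42.0 M in the NFX1 library on the FPKM scale. The authors' scaling is not given, so these need not be the sequenced depths. Of 15 markers of the hepatocyte lineage, all 15 had at least 1 FPKM in a library, and SERPINA1, the plasma antitrypsin, had 5935 and 6807 FPKM. Albumin (ALB), the defining product of hepatocytes, had only 0.776 FPKM with the vector and 1.06 FPKM with NFX1, and transthyretin (TTR) had 1.38 and 1.96 FPKM. Both were singled out after their values were seen. Of 8 markers of enterocytes, the other main source of apolipoproteins, FABP2, CDX1, SI and LCT were listed at 0 in both libraries, and all 8 together summed to 2.71 and 4.09 FPKM. The 2 measured ones, CDX2 (1.29 and 2.13 FPKM, log2 change 0.45, a difference of more than 25%) and VIL1 (1.32 and 1.85 FPKM, 0.30), were both higher in the NFX1 library and made up nearly all of that sum. Their part in the members' values was not tested. The 8 fibroblast markers summed to 1.40 and 1.36 FPKM and the 8 endothelial markers to 0.633 and 0.271 FPKM. Of 8 markers of macrophages and blood, PTPRC, CD163 and MARCO were at 0 in both libraries, and CD68 and LYZ made up nearly all of the sums of 98.4 and 101 FPKM. In bulk RNA, fewer cells of a type and less RNA per cell cannot be told apart.

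Of the 10 members, 9 had at least 1 FPKM in a library. Their levels spanned several orders of magnitude, from APOE at 1439 FPKM in the vector library to APOA5 at 0.0836 FPKM. In the vector library the order after APOE was APOC1, APOA1, APOM, APOA2, APOB, APOC3, APOH, APOA4 and APOA5. The NFX1 library had the same order except that APOM lay above APOA1. There is no spread between cultures against which to judge neighbours in this order. The 10 genes summed to 2352 FPKM with the vector and 2600 FPKM with NFX1, and APOE made up 61.2% and 58.8% of these sums.

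**Figure D1:**
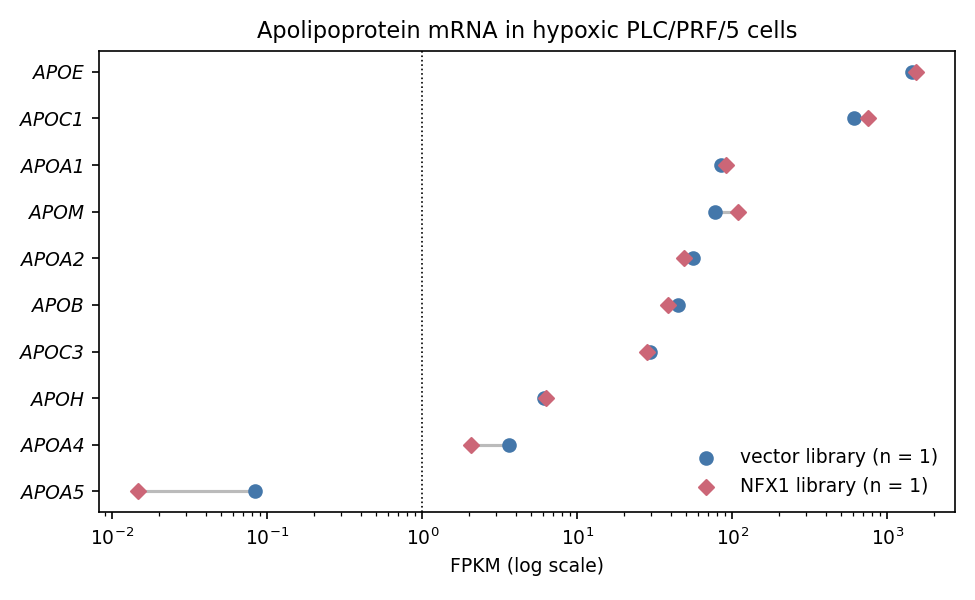
FPKM of the 10 apolipoprotein genes on a log scale in the vector library (circles) and the NFX1 library (diamonds), 1 library each, with a dotted line at 1 FPKM. APOE and APOC1 lie highest in both libraries, and APOA4 and APOM have the widest separation among the 9 genes above the line.

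The differences between the libraries were small for most members. On the scale of log2((NFX1 FPKM + 1)/(vector FPKM + 1)), 5 of the 9 measured members were higher and 4 were lower in the NFX1 library, where 52% of all genes were higher. The median change of the members was 0.04. The median over all 11182 genes with at least 1 FPKM in a library was 0.01. A limit of 25% (the higher value at least 25% above the lower, on the same scale) stood in for a test. It was passed by 2 of the 9, APOM upwards and APOA4 downwards, where 8.42% of all genes passed it in either direction. In single directions, 6.12% of all genes were higher and 2.3% lower beyond this limit. With the libraries scaled to equal summed FPKM the split of all genes turned, to 1.5% higher and 10.1% lower beyond it, and 31.9% of all genes were then higher by any amount. APOM and APOA4 were past the limit under this scaling too, with APOA2 and APOB lower beyond it as well. At a limit of 10% the count was 5 of 9, close to the 50.1% of all genes. Only APOA4 passed 1.5-fold, where 0.635% of all genes did so in either direction, and none of the 9 passed 2-fold, against 0.143% of all genes. The counts concern only 9 genes. Without APOM the median was -0.0043 and without APOA4 it was 0.065. Removal of any other member on the same side of the median gives the same value, so these shifts are not particular to APOM and APOA4.

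APOE and APOC1 were the most abundant members. APOE, the receptor ligand of remnant particles, had 1439 FPKM with the vector and 1529 FPKM with NFX1, and ranked 71st and 74th among all genes. The ratio of NFX1 to vector was 1.06 (95% exact counting interval, 1.05 to 1.08), from an estimated 31085 and 37944 fragments. With the libraries scaled to equal summed FPKM the log2 change of APOE was -0.05, against 0.09 as deposited. APOC1, which inhibits cholesteryl ester transfer protein and hinders the uptake of remnants, had 611 and 748 FPKM. That ratio of 1.22 (counting interval, 1.18 to 1.26) was the second highest of the measured members, and its log2 change of 0.29 was at or above that of 91.3% of all genes. The APOC1 values may include fragments of its pseudogene APOC1P1, which had 0.689 FPKM with the vector and 0.133 FPKM with NFX1 and was named with its values known. The row that holds APOC2, the cofactor of lipoprotein lipase, together with APOC4 had 1.08 and 1.13 FPKM.

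The structural genes of HDL differed little and in opposite directions. APOA1, which activates the cholesterol-esterifying enzyme LCAT, had 84.2 FPKM with the vector and 90.7 FPKM with NFX1. The ratio was 1.08 (counting interval, 1.02 to 1.14), and under equal summed FPKM the log2 change of 0.11 turned to -0.03. Its antisense gene APOA1-AS, which shares 123 exon bases with it in GENCODE, was listed at 0 in both libraries. APOA2, the second structural protein of HDL, had 56.1 and 48.8 FPKM, a ratio of 0.870 (counting interval, 0.757 to 1.00). Its transcript is only 474 bp long, so those values rest on an estimated 411 and 411 fragments. On the FPKM scale, 1 fragment of the NFX1 library was worth 0.870 of 1 fragment of the vector library, so equal numbers give a lower FPKM. Whether this worth follows the sequenced depth or the authors' scaling, which is not given, was not tested.

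APOB, the structural protein of very-low-density lipoprotein, was lower in the NFX1 library, at 44.5 FPKM against 38.6 FPKM. The ratio was 0.866 (counting interval, 0.850 to 0.883), narrow because a transcript of 14121 bp collected an estimated 22563 and 22459 fragments. Its log2 change of -0.20 was at or above that of 10.9% of all genes, within the 25% limit. MTTP, the transfer protein that loads lipid onto APOB, had 0.365 and 0.243 FPKM, under the level at which a gene was called measured. MTTP was singled out after its values were known.

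The remaining members of the chromosome 11 cluster act on triglyceride-rich particles. APOC3, an inhibitor of triglyceride hydrolysis, had 29.3 FPKM with the vector and 28.2 FPKM with NFX1, and the counting interval of the ratio, 0.822 to 1.13, includes no difference. APOA4, which in humans is made mostly by the intestine and coats chylomicrons, had 3.62 and 2.05 FPKM. The ratio was 0.565 (counting interval, 0.436 to 0.727), from an estimated 159 and 103 fragments. Its log2 change of -0.60 was the lowest of the measured members, and 0.206% of all genes had a change as low or lower. In GENCODE, exons of APOA4 share 635 bases with those of an antisense gene on the other strand, and without stated strandedness reads of both cannot be told apart. APOA5, a stimulator of lipoprotein lipase, had 0.0836 and 0.0145 FPKM, an estimated 5 fragments and 1 fragment. The counting interval of its ratio ran from 0.00368 to 1.56, so whether APOA5 differed was not detectable at this depth.

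APOM, a lipocalin that carries sphingosine 1-phosphate on HDL, had the greatest increase of the measured members. It had 77.2 FPKM with the vector and 109 FPKM with NFX1, a ratio of 1.41 (counting interval, 1.32 to 1.52). Its log2 change of 0.50 was at or above that of 99.2% of all genes. APOM and BAG6, a chaperone gene, were listed with the same span of the genome (chromosome 6, 31606805 to 31625987, hg19), and in GENCODE their exons share 136 bases on opposite strands. BAG6 had 158 and 191 FPKM, a log2 change of 0.27. The part of overlapping reads in the APOM values was not tested. The other 6 rows named APOM, on alternative haplotypes of the same region, were at 0 in both libraries. APOH, a plasma glycoprotein that binds anionic phospholipid, had 6.07 and 6.28 FPKM, a ratio of 1.04 (counting interval, 0.855 to 1.26, which includes no difference). Its log2 change of 0.04 turned to -0.07 under equal summed FPKM.

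**Figure D2:**
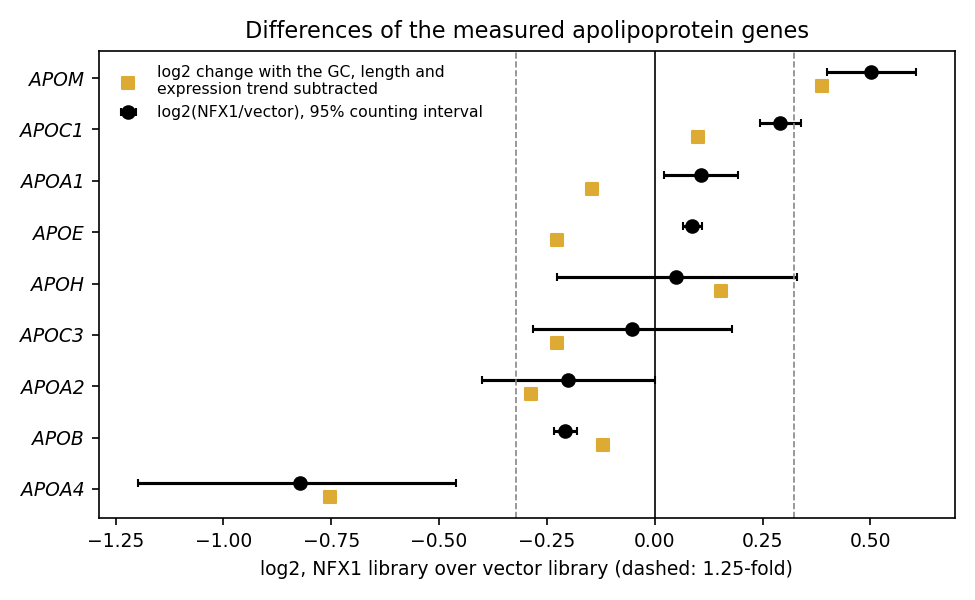
Log2 ratio of NFX1 FPKM to vector FPKM, without pseudocount, of the 9 measured members (black circles) with 95% exact counting intervals, and the log2 change with pseudocount 1 after the trend with base composition, length and expression was subtracted (squares). APOM and APOA4 lie beyond the dashed 25% limits in both forms, and APOA1 and APOE lie above 0 as deposited and below 0 after subtraction.

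In the authors' deposited table, none of the 10 members was marked significant. For APOA4 the authors' deposited table gives a log2 ratio of -0.82, p = 0.01755 and q = 0.999. The other 8 tested members had p-values from 0.248 (APOC1) to 0.867 (APOH) in the authors' deposited table, each also with q = 0.999. APOA5 was not tested there. APOM had the highest fold and a p of 0.632 in the authors' deposited table. The authors' deposited log2 fold change divided by their statistic was 1.07 for APOM, against 0.255 for APOC1 and a median of 0.259 over 5504 genes above 10 FPKM in both libraries. Only 0.636% of those genes had a ratio as high. Such p-values rest on single libraries, so they carry no information on how cultures vary.

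The members' sequences differ in base composition, and so did the changes of all genes. Of 5 equal classes of genes by transcript GC content, the lowest (median 40.4%) had a median log2 change of -0.11 and the highest (median 62.5%) one of 0.20. APOE (68.0% GC), APOA1 (63.6%), APOA4 (61.0%) and APOC3 (60.4%) belong to the highest class, while APOB (45.3%) and APOH (44.3%) belong to the next-to-lowest. When the trend on GC content, length and expression was subtracted, 6 of the 9 measured members were lower and 3 higher, where 49.8% of all genes were lower, and their median was -0.14, against 0.00 for all genes. The log2 change of APOE was then -0.23, that of APOA1 -0.14 and that of APOC3 -0.23. APOA2 stood at -0.29, and 2.75% of genes were at or below that value. APOC1 kept a smaller increase of 0.10, APOH had 0.15 and APOB -0.12. APOM at 0.39 and APOA4 at -0.75 again were the only members past the 25% limit, where 1.96% of genes were higher and 1.89% lower to that extent.

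**Figure D3:**
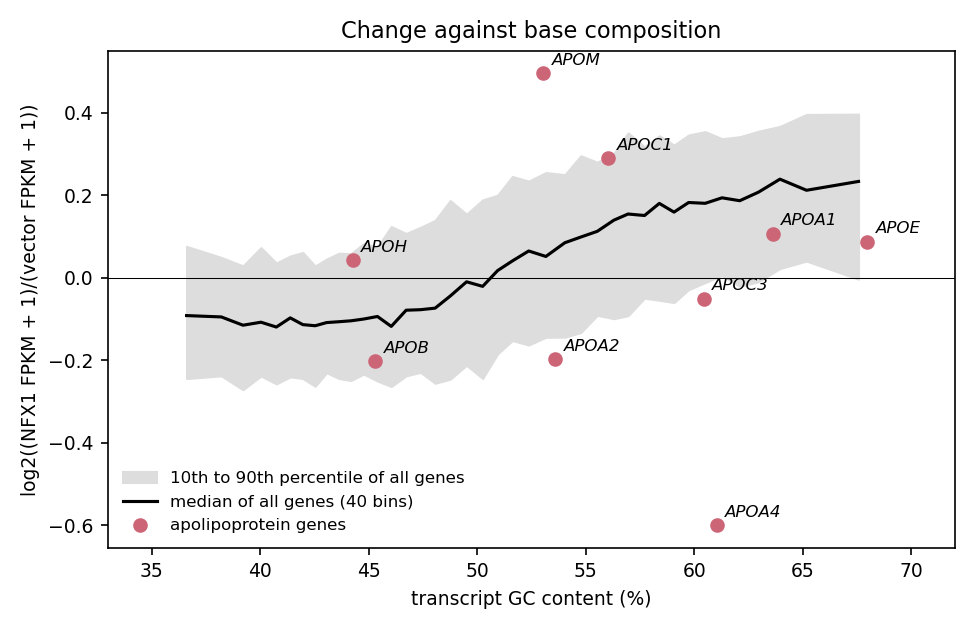
Log2 change of each measured apolipoprotein gene (points) against its transcript GC content, with the median of all genes in 40 bins (line) and the range from their 10th to 90th percentile (grey). APOM lies above the grey range and APOA4, APOA2 and APOC3 below it.

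Whether neighbouring members shared a direction depended on the processing, through APOA1 and APOE. APOA4, APOC3 and APOC1 kept theirs under all 8 alternatives that give a value for a single gene. The cluster on chromosome 11 holds APOA5 (116660086 to 116663136, hg19), APOA4 (116691418 to 116694011), APOC3 (116700624 to 116703787) and APOA1, whose listed span of 116706469 to 116969181 also contains SIK3. Within it, the log2 change ran from -0.60 for APOA4 to 0.11 for APOA1, and the flanking genes ZPR1 and SIK3 had 0.09 and 0.00. After the trend was subtracted all 3 measured members of this cluster were lower, at -0.75 for APOA4, -0.23 for APOC3 and -0.14 for APOA1, and under equal summed FPKM they were lower too. On chromosome 19, APOE (45409006 to 45412652, hg19) and APOC1 (45417921 to 45422606) had log2 changes of 0.09 and 0.29 as deposited. The flanking genes TOMM40 and CLPTM1 had 0.19 and 0.22. Between APOC1 and CLPTM1, the pseudogene APOC1P1, under 1 FPKM in both libraries, was lower at -0.58. The row of APOC2 with APOC4 had 0.03. After subtraction APOE was at -0.23 and APOC1 at 0.10, with TOMM40 at -0.06 and CLPTM1 at 0.01. APOA2 lies alone on chromosome 1 (161192083 to 161193418), APOB on chromosome 2 (21224301 to 21266945) and APOH on chromosome 17 (64208147 to 64225556).

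The stretch of 250 bases before the transcription start was read from RefSeq (GRCh38.p14) for the members past the limit, APOA4 and APOM, and for APOC1 and APOE, which did not pass it. The table of promoters had entries for 7 members, and APOA1, APOB and APOC3 were not among them. Where several starts were listed, the one farthest upstream was used. Each sequence is printed 5′ to 3′ on the strand of its gene, in lower case, with matches to 5 motifs in capitals on either strand. The letters TATAAA are those of the core promoter box, and CACGTG is the E-box. For nuclear receptor sites AGGTCA was searched, and with it the form GGGTCA. The letters AAAGTCCA are the core of an HNF4 motif. The windows lie at chr11:116823305-116823554 (minus strand), chr6:31655644-31655893 (plus), chr19:44914422-44914671 (plus) and chr19:44905546-44905795 (plus).
APOA4: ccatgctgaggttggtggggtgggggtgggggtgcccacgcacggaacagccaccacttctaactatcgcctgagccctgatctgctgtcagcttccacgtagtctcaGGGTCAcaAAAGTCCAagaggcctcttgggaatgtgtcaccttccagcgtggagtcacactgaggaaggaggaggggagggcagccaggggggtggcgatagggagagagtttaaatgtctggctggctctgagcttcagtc
APOM: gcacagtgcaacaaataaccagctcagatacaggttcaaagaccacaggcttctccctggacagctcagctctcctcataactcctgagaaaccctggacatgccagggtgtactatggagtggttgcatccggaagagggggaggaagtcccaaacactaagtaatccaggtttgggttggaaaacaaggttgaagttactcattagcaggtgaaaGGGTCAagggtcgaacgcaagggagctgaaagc
APOC1: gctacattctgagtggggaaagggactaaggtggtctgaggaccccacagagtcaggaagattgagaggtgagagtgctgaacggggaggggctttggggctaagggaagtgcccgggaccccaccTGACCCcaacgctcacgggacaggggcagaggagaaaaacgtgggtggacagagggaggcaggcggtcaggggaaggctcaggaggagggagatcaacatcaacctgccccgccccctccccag
APOE: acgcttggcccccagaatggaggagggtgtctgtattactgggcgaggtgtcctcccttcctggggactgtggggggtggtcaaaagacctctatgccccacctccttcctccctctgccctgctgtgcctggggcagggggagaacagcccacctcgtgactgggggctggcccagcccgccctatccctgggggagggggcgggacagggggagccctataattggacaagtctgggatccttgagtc
The APOA4 window held GGGTCA from 142 to 137 bases before the start and, further on, the HNF4 core from 134 to 127 bases. This core was found on either strand in 0.980% of 35116 RefSeq windows of this length, and the receptor form in 12.1%. The APOM window held GGGTCA from 33 to 28 bases before the start, and the APOC1 window held it on the opposite strand. None of the 5 letter strings occurred in the APOE window. These matches describe the letters only, and whether a factor binds there was not tested.

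Genes of the same pathway were set beside the members by role. Of 15 listed other apolipoproteins and binding partners with a row, 6 were measured, with a median log2 change of -0.05, which turned to 0.04 after the trend was subtracted. APOA1BP, an epimerase that binds APOA1, was the only one past the limit, at 144 and 183 FPKM (log2 change 0.34, and 0.14 after subtraction). Clusterin (CLU), also called apolipoprotein J, had 79.0 and 98.9 FPKM. Its ratio of 1.253 lay at the limit, and only the pseudocount kept its log2 change of 0.32 inside (0.19 after subtraction). The mitochondrial APOO had 31.6 and 30.2 FPKM. None of the 21 measured genes of lipoprotein assembly and secretion passed the limit as deposited, where 8.42% of all genes did. Their median was -0.09, with 12 lower and 9 higher. The split was 16 lower and 5 higher after subtraction, and 17 lower and 4 higher under equal summed FPKM, where 31.9% of all genes were higher. PLTP, named with its values known, had a log2 change of -0.30 as deposited. After subtraction it was at -0.43, past the limit, where 1.89% of genes were lower to that extent. P4HB, the partner of MTTP in the transfer complex, had 932 and 997 FPKM, and SURF4, a cargo receptor for lipoprotein export, 393 and 429 FPKM.

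Among 7 measured genes of HDL formation and remodelling, 1 was past the limit, which 8.42% of all genes passed in either direction. Hepatic lipase (LIPC) had 10.5 FPKM with the vector and 14.3 FPKM with NFX1, a log2 change of 0.41 as deposited and 0.44 after subtraction. The other measured genes included PON2, an intracellular paraoxonase, at 199 and 171 FPKM, and SCARB1, the HDL receptor, at 109 and 122 FPKM. The list had a median of -0.06, against 0.01 for all genes. All 4 measured genes of lipolysis and its regulators were lower as deposited, where 52% of all genes were higher. Their median was -0.12, and none was past the limit as deposited. After subtraction 3 of the 4 were lower, where 49.8% of all genes were. A list of 4 genes is too short to set against these shares. ANGPTL4, an inhibitor of lipoprotein lipase known as a hypoxia-induced gene, had 266 and 238 FPKM, a log2 change of -0.16. After subtraction ANGPTL4 was at -0.43, past the limit, where 1.89% of genes were lower to that extent. The triglyceride regulator CREB3L3, a transcription factor that activates several apolipoprotein genes, had 5.11 and 4.47 FPKM.

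Of 13 measured lipoprotein receptors and their regulators, 9 were higher, where 52% of all genes were, with a median of 0.12 that turned to -0.03 after subtraction. The number higher was 4 after subtraction and 7 under equal summed FPKM. MYLIP, a ubiquitin ligase that acts on lipoprotein receptors, had 1.95 and 1.28 FPKM and was lower beyond the limit, as 2.3% of all genes were. Of 26 measured genes listed as transcription regulators of apolipoprotein genes, 20 were higher as deposited, where 52% of all genes were. After subtraction 15 were higher and 11 lower, where 49.8% of all genes were lower, and under equal summed FPKM 16 were higher and 10 lower. CEBPA and SREBF1 were among those higher beyond the limit as deposited, which 6.12% of all genes were. CEBPA had 16.1 and 21.7 FPKM and SREBF1, a regulator of lipid synthesis, 48.0 and 63.7 FPKM. HNF4A had 38.9 and 44.2 FPKM, a log2 change of 0.18 that was 0.00 after subtraction, and it was named with its values known. The median of this list went from 0.18 as deposited to 0.00 after subtraction.

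**Figure D4:**
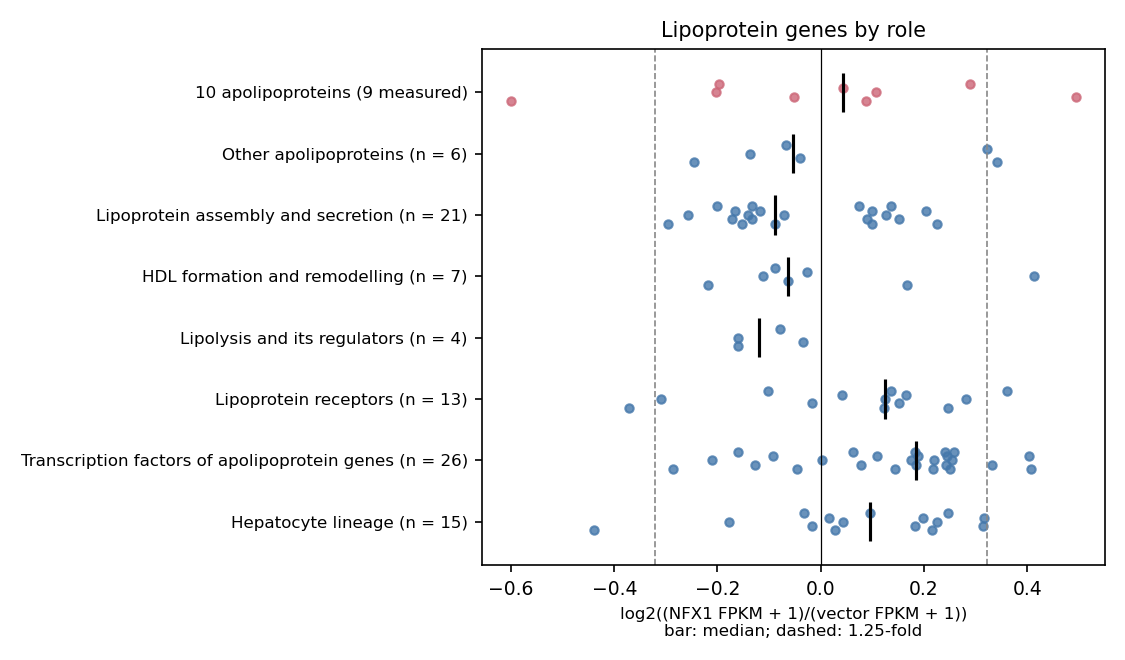
Log2 change of each measured gene in the apolipoprotein set and in 7 lists, with the median as a bar and the 25% limits dashed. The apolipoproteins span -0.60 to 0.50, and the genes of lipoprotein assembly lie within the limits on both sides.

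The precision of the members' values follows from their length as much as from their level. FPKM of single-exon genes with few fragments fell on lines of whole fragments when 274 bp was taken off the length, the offset that fitted both libraries. For a transcript as short as that of APOA2 (474 bp) most of the length then drops out, so its FPKM depends strongly on the assumed transcript and fragment lengths. APOH, at a level of 6.28 FPKM in the NFX1 library, rested on an estimated 238 fragments, and APOA2, at 48.8 FPKM, on 411. Levels of different members are therefore compared only as FPKM, and those of the short APOA2, APOC1 and APOC3 depend most on the assumed lengths.

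**Figure D5:**
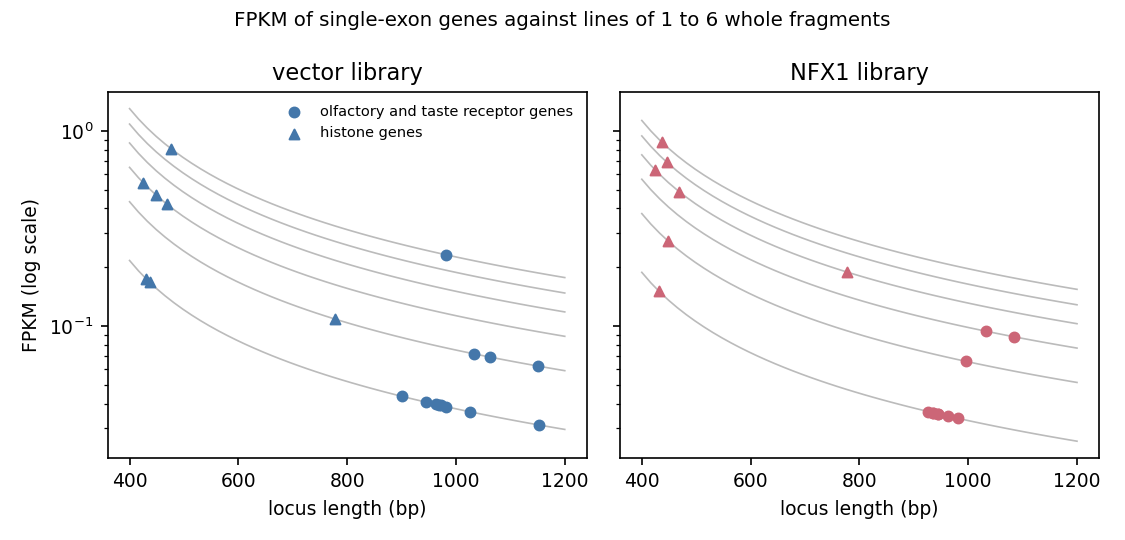
FPKM (log scale) of single-exon receptor genes (circles) and histone genes (triangles) with up to 6 fragments, against locus length, in each library. The grey lines give the FPKM of 1 to 6 whole fragments, and the points lie on them.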

How the data were processed

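RNA sequencing values of 2 PLC/PRF/5 libraries were used, 1 of empty-vector cells and 1 of NFX1-overexpressing cells, both under hypoxia and grouped by the genotype in the labels. The submitters' processing notes name TopHat2 2.1.0, Cufflinks 2.2.1 and hg19. Settings, annotation, strandedness and the scaling of the libraries are not given in the sources used here. Per the file headers, the authors gave FPKM for each library. They deposited with it, per the file headers, the log2 ratio of each row, its test score, p-value and q-value.

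The 10 members and all gene lists were chosen with earlier results of these data known. Of 28658 rows, 1651 lacked a symbol and 492 named more than 1 gene, and these were left out. Of several rows with 1 symbol, that with the highest mean was kept. Changes were computed as log2((NFX1 FPKM + 1)/(vector FPKM + 1)), and a gene was called measured with at least 1 FPKM in a library. A limit of 25% stood in for a test, since 1 library per group allows none. All 10 members and NFX1 were always named, as were list genes past that limit and the 4 most abundant genes of a list. A few other genes were named after their values were seen, as stated beside them, and some that the rule names are not reported here.

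The table has no counts, but FPKM of single-exon genes with few fragments falls in whole steps. A line through 8 receptor genes in the vector library and 7 in the NFX1 library, each with 1 fragment, gave 36.6 M and 42.0 M fragments on the FPKM scale, with an offset of 273.8 and 273.6 bp taken off each length. With these values, 20 of 21 histone loci in the vector library and 19 of 19 in the NFX1 library came within 0.03 of a whole number of fragments. Only loci of at least 425 bp with under 60 fragments were counted. The estimates of all measured members lie above 60 fragments, where no such check was made. Fragments of a member were estimated with its shortest RefSeq-linked GENCODE release 29 transcript, and 95% exact (Clopper-Pearson) intervals of the fold cover counting error only. A trend on transcript GC content, length and expression was fitted by cubic splines to genes within 2-fold and subtracted as an alternative. It covered 10996 genes (98.3%), matched by symbol without coordinates. The other alternatives were the pseudocount (0.1 and 5), 3 scalings, the treatment of repeated rows, row status, the filter and the fold limit. The steps were tested on simulated data. The work was done in Python 3.11.15 with scipy 1.17.1, numpy 2.4.6, pandas 2.3.3 and, for plots, matplotlib 3.10.9.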

Additional observations from a re-analysis of the deposited data

How the results depend on the processing

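APOM and APOC1 stayed higher and APOA2, APOA4, APOB and APOC3 stayed lower under all 8 alternatives that give a value for a single gene. Several of these could not turn the sign of any member. A pseudocount never does, and the treatment of repeated rows and row status left the value of every measured member unchanged. The 3 scalings all lowered the NFX1 values, so they could turn only higher members. Lower members could have turned only when the trend was subtracted. The log2 change of APOM ranged from 0.36 to 0.50, that of APOA4 from -0.79 to -0.29 and that of APOC1 from 0.10 to 0.29. APOA1 and APOE turned to -0.03 and -0.05 when the libraries were scaled to equal summed FPKM, and to -0.14 and -0.23 when the trend was subtracted. APOH turned negative under the 3 scalings, at -0.07 under that to summed FPKM. The summed FPKM scaling lowered the median of all genes to -0.10. The median change of the measured members was 0.049 with pseudocount 0.1, 0.027 with pseudocount 5, -0.0055 with median ratio scaling, -0.0013 with upper quartile scaling, -0.074 with summed FPKM scaling, -0.144 with the trend subtracted, -0.0043 without a filter, 0.065 with at least 5 FPKM, -0.0043 without APOM and 0.065 without APOA4. The number of members past the limit was 1 with pseudocount 5 (APOA4 fell inside it), where 3.345% of all genes passed. It was also 1 with at least 5 FPKM (8.33% of all genes) and 4 with summed FPKM scaling (11.6%). It was 5 at 1.1-fold (50.1%), 1 at 1.5-fold (0.635%) and 0 at 2-fold (0.143%). Without APOM or without APOA4 it was 1 (8.42%). The alternatives without APOM and without APOA4 were chosen after seeing the data. The causes were not tested beyond what each alternative's construction shows. No paired analysis was possible because each group has 1 library. Intervals cover counting error only, and depth limits APOA5.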
